A study of Mus musculus with 24 samples.

Results

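The type I interferon response genes described here are 39 interferon-stimulated genes chosen by name from a table of 55487 genes. All 39 were found in the table, and all 39 were among the 23059 genes with enough reads to test. They were measured by bulk RNA-seq in 24 mouse libraries that the labels call LSK, the lineage-negative, Sca-1-positive, KIT-positive fraction that holds blood stem and multipotent progenitor cells. The series' design text names the sorted cells as lineage-negative and KIT-positive. Its title concerns protection of fetal cells from leukaemia driven by MLL::ENL (ME), a fusion of the histone methyltransferase MLL with ENL, and the dependence of that protection on MLL3. The fusion was human and under Tet-off control in mice. The cell type that drives it, and what other alleles the wild-type mice carry, are not given in the sources used here.

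There were 6 groups of 4 libraries, which the design text calls biological replicates. Newborns (postnatal day 0, P0) gave liver cells, either wild type (P0 WT) or carrying ME since its induction at E10.5 of gestation (P0 ME). Mice at postnatal day 28 (P28) gave marrow cells, which were wild type (P28 WT), or had ME from E10.5 (E10.5-induced ME) or from birth (P0-induced ME). The last group, also P28 marrow with ME induced at E10.5, carries the added words RLT Vav Txp, which the labels do not expand. Its titles carry identifiers in place of replicate numbers, 2 of them with a shared number whose meaning is not given, and its libraries are numbered 1 to 4 here in accession order. P0 and P28 therefore also differ in organ, and age and organ cannot be told apart. Levels are given in CPM, read counts scaled to library size with TMM factors, and differences as log2 fold changes with the standard error of the edgeR quasi-likelihood fit. A gene was called at an edgeR adjusted p under 0.05.

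Type I interferons bind the receptor pair IFNAR1 and IFNAR2, and the kinases JAK1 and TYK2 then phosphorylate signal transducers that include STAT2. With IRF9 these form a complex that binds the interferon-stimulated response element in the promoters of antiviral genes. IRF7, itself induced, amplifies interferon production, and the products include RNA sensors, enzymes that degrade or edit viral RNA, and the ubiquitin-like modifier ISG15. Interferon signalling around birth has been described in fetal and neonatal blood progenitors, and chronic interferon drives stem cells out of quiescence.

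The response element was searched as GAAA, 2 free bases and GAAA on both strands in RefSeq promoter windows (GRCm38.p6) that run from 250 bases before to 50 bases after each transcription start. Windows were given for 28 of the 39 genes, and 14 of these 28 held a match, beside 3.99% of the 27025 genes with a window. The 120 bases before the start are shown for 4 genes whose levels are described below, 5′ to 3′ on the gene's strand, with the matches to the response element in capitals, because these are the letters the interferon-activated complex is known to bind. They lie at chr4:156200819-156200938 (minus strand), chr19:34640769-34640888 (plus strand), chr5:120907526-120907645 (minus strand) and chr12:26456453-26456572 (minus strand).
Isg15: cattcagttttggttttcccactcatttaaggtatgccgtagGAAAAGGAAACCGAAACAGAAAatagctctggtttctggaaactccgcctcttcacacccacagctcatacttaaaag
Ifit1: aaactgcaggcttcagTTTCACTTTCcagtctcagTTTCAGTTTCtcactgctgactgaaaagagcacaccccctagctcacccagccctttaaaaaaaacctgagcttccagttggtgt
Oas1a: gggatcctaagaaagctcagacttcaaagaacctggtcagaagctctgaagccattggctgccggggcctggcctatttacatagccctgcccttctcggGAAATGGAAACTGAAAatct
Rsad2: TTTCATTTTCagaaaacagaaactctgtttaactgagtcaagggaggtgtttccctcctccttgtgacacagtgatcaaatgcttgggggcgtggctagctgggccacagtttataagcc
Isg15 held 3 overlapping matches, the first starting 78 bases before the start site. In the bases shown, Ifit1 held 2 on the opposite strand and Rsad2 held 1, at the far end. The pair in Oas1a lay within 20 bases of the start. Irf7, Irf9, Ifit2, Oasl1, Oasl2, Xaf1, Ifi44, Cmpk2, Sp100 and Adar were among the 14 genes with a window and no match to these letters in it.

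Many of the genes are neighbours in GRCm38 (GENCODE M21). The Ifit genes lie on chr19 between 34550694 and 34650009, Oas1a, Oas2 and Oas3 on chr5 between 120730333 and 120907521, and Oasl1 and Oasl2 on chr5 between 114896936 and 114937915. Mx1 and Mx2 share chr16 from 97447035 to 97560900, Parp14, Dtx3l and Parp9 the stretch of chr16 from 35832874 to 35972605, and Rsad2 and Cmpk2 chr12 from 26442746 to 26479837. Irf7 is at chr7:141262706-141266481, Stat2 at chr10:128270559-128292849, Irf9 at chr14:55603571-55610030, Isg15 at chr4:156199424-156200818, Dhx58 at chr11:100694884-100704271, Ddx58 at chr4:40203773-40239828 and Rtp4 at chr16:23520291-23614222. Per kilobase of exon, the highest levels in P28 WT were those of Ifi27, a mitochondrial membrane protein (136 CPM per kb), Ifi47, an immunity-related GTPase (113), and Bst2, the tetherin that holds budding virions at the cell surface (94.6). Ifi204, a DNA sensor of the p200 family, was lowest at 1.19 CPM per kb. Bst2 and Ifi27 also ranked first and second per kilobase in P0 WT, at 132 and 129 CPM per kb.

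Library totals ran from 31233688 to 89774511 counts. Markers of other cell types differed between libraries, and their part in the results below was not tested. The summed level of 12 macrophage markers was 233, 1684, 1688 and 1717 CPM in P0 WT and 154, 2099.7, 1669 and 1478 in P0 ME, so that the libraries numbered 1 stood far below the other 3 of each P0 group. P28 WT had 79.2 to 119 CPM and RLT Vav Txp 809 to 3408, with 50.1 to 78.5 and 48.9 to 66.1 in E10.5-induced and P0-induced ME. C1qa and Adgre1, which define tissue macrophages, averaged 281 ± 153 and 117 ± 63.9 CPM (SD, n = 4) in RLT Vav Txp and 6.73 ± 3.07 and 1.33 ± 1.02 in P28 WT. Erythroid, monocyte and neutrophil markers followed the same split at P0. The sum of 7 monocyte and neutrophil markers was 716, 11313, 8351 and 13019.6 CPM in the libraries of P0 WT, against 463 to 683 in P28 WT. Genes of the sorted population were present in all libraries, with Kit at 780.3 ± 536 and 688 ± 72.1 CPM and Ly6a (Sca-1) at 139 ± 61.6 and 296 ± 30.6 CPM in P0 WT and P28 WT (SD, n = 4). The sum over Kit, Ly6a, Cd34, Slamf1 and Flt3 was 3576, 1899.5, 2399 and 1662 CPM in P0 WT, highest in library 1. In P0 ME it was 3449, 1393, 2404 and 1577 CPM, also highest in library 1. It was 3242 to 3926 CPM in the 12 libraries of the other P28 groups and 1248 to 2227 in RLT Vav Txp. The sum of 6 mast cell and basophil markers was also highest in P0 WT library 1, at 4087, 547, 1019 and 606 CPM. In P0 ME it was lowest in library 1, at 240, 367, 673 and 321 CPM. In bulk RNA, fewer cells of a type and less RNA per cell cannot be told apart.

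The ligands were near 0 in these cells. Ifnb1, 4 interferon alpha genes, Ifnk, Ifne and Ifng summed to between 0 and 0.402 CPM per library, and none had enough reads to test. Markers of plasmacytoid dendritic cells, the main producers of interferon alpha, summed to 5.50 to 51.3 CPM over 5 genes, and their defining marker Siglech averaged 0.409 ± 0.457 CPM in P28 WT. The receptor genes were expressed throughout, with Ifnar1 at 98.1 ± 10.8 CPM and Ifnar2 at 133 ± 7.37 CPM in P28 WT (SD, n = 4). The plot of log2 levels by library gives all 39 genes, in the order of the roles used below.

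**Figure D1:**
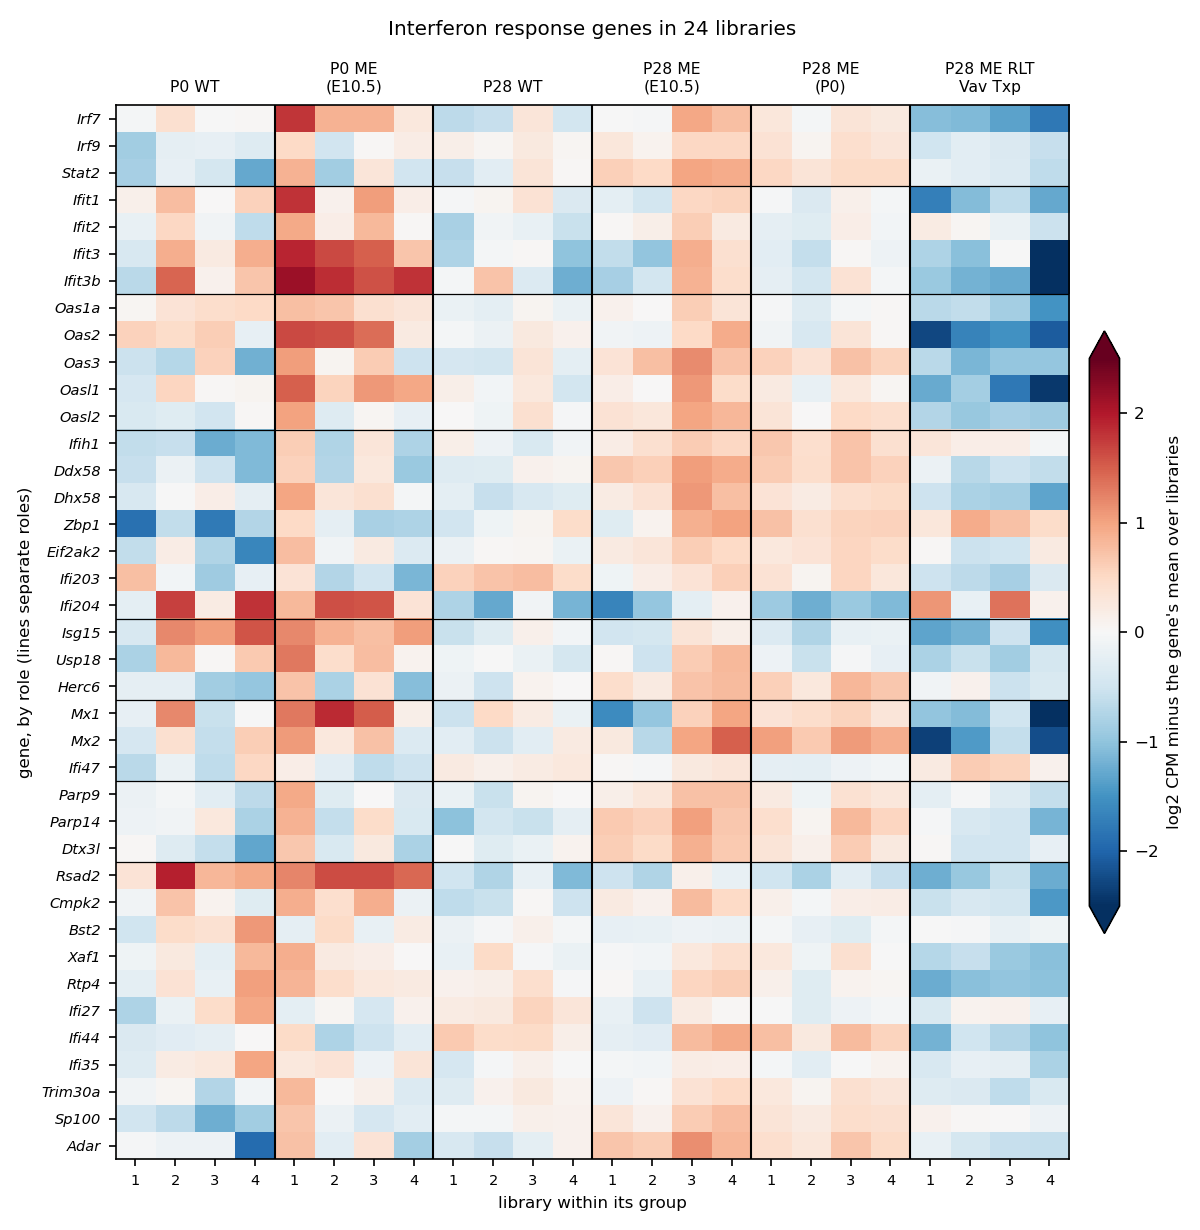
Level of the 39 interferon response genes (rows, by role) in the 24 libraries (columns, 4 per group), as log2 CPM minus the mean of the gene over all libraries; red is above and blue below that mean. The 4 RLT Vav Txp libraries are below their mean for most genes, P0 ME library 1 and E10.5-induced ME libraries 3 and 4 are above it for most, and Rsad2, Isg15 and Ifi204 are highest at P0 on average. For Isg15 and Ifi204, P0 WT library 1 lies below some P28 libraries. For Ifi204, P0 WT library 3 and P0 ME libraries 1 and 4 also lie below RLT Vav Txp libraries 1 and 3.

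From P0 to P28 in wild-type cells, 3 of the 39 genes fell and 2 rose, while 4.56% of all genes fell, 3.12% rose and 7.68% were called in either direction. The antiviral radical SAM enzyme Rsad2, the modifier Isg15 and the sensor Ifi204 fell, and the nuclear body protein Sp100 and the Z-nucleic acid sensor Zbp1 rose. The median log2 fold change of the 39 genes was -0.16, beside -0.07 over all genes, with 18 above 0 and 21 below. 

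Rsad2 had 91.03, 273, 128 and 138 CPM in the 4 P0 WT libraries and 50.5, 42.4, 62.6 and 33.2 in P28 WT. Every P0 library lay above every P28 library, and the log2 fold change was -1.74 ± 0.26 (edgeR adjusted p = 0.000169), a 3.34-fold fall. Rsad2 was the only 1 of the 5 that stayed called in each of the 11 alternatives and 8 fits with a library left out. Its neighbour Cmpk2, a mitochondrial nucleotide kinase transcribed in the opposite direction, changed by -0.55 ± 0.25 with an edgeR adjusted p of 0.184.

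Isg15 had 22.8, 68.6, 61.9 and 88.7 CPM in P0 WT and 20.4, 24.2, 32.6 and 28.4 in P28 WT. P0 library 1, the 1 with few macrophage transcripts, lay inside the P28 range, and the other 3 lay above it. The fall was -1.19 ± 0.29 (edgeR adjusted p = 0.0118). Ifi204 followed the same pattern, with 6.06, 23.3, 8.19 and 24.9 CPM at P0 and 4.14, 2.93, 6.69 and 3.19 at P28, and fell by 1.88 on the log2 scale (edgeR adjusted p = 0.0126). For both genes P0 library 1 was the lowest of its group. Without that library 8 of the 39 genes were called, and without both P0 libraries numbered 1, 9 were called, 4 higher and 5 lower. Without P28 WT library 2 the count was 3.

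Sp100 had 115, 101, 68.8 and 87.1 CPM at P0 and 154, 155, 175 and 173 at P28, with no overlap, and rose by 0.82 ± 0.19 (edgeR adjusted p = 0.00951). Zbp1 had 4.12, 9.89, 4.42 and 9.09 CPM at P0 and 10.8, 14.1, 15.8 and 20.8 at P28 and rose 2.24-fold (edgeR adjusted p = 0.0326). The transcription factors were not called. Irf7 had 90.2, 123, 91.9 and 94.9 CPM at P0 and 59.2, 62.1, 114 and 67.5 at P28, with a log2 fold change of -0.40 ± 0.27 (edgeR adjusted p = 0.419), and P28 library 3 lay within the P0 range. Irf9 had 94.2, 146, 149 and 136 CPM at P0 and 188, 178, 204 and 177 at P28, and its groups did not overlap although its edgeR adjusted p was 0.0687. Groups that did not overlap were seen for 5 genes higher and 1 lower at P28, beside 4.89% and 4.38% of all genes. Bst2 was 61.5 to 184 CPM at P0 and 78.1 to 94.2 at P28, and Ifi27 92.0 to 309 and 182 to 233, with P0 library 1 lowest and P0 library 4 highest for both at P0. P0 WT library 4 also stood apart in length and mitochondrial reads. Its difference between short and long genes was 1.34 log2 units, beside -0.11 to 0.25 in the other 3, and 3.46% of its counts were mitochondrial, beside 1.07% to 1.84%. Bst2, Ifi27 and Isg15 are short transcripts of 792, 977 and 756 bases. Across the 39 genes Spearman's rho of fold change with length was 0.53, beside 0.11 over all genes, and the part of length was not tested beyond the GC and length offsets, with which 3 genes rose and 3 fell, Isg15, Ifi204 and Rsad2 being the latter.

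Genes of the interferon gamma response rose over the same interval. Of 17 such genes, 10 were called higher at P28 in wild-type cells and 0 lower. The GTPase gene Tgtp1 was at 38.0 to 50.02 CPM at P0 and 124 to 162 at P28 (log2 fold change 1.70 ± 0.24, edgeR adjusted p = 5.42e-05). The guanylate-binding protein Gbp2 rose by 1.37 ± 0.23 and the immunoproteasome subunit Psmb9 by 0.97 ± 0.17, with edgeR adjusted p-values of 0.000372 and 0.000713. Among the regulatory factors, Irf1 rose by 1.20 ± 0.25 and Irf8, a myeloid factor, fell by 1.35 on the log2 scale (edgeR adjusted p = 0.00307 and 0.00392). The count of 10 became 4 in a fit of these 2 groups only and 6 with limma, and it was 6 without P28 WT library 4. It was 10 without both P0 libraries numbered 1. Macrophage markers moved the other way, with 11 of 12 lower at P28.

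With ME at P0, the genes leaned upward but only Sp100 was called, beside 0.364% of all genes called higher and 0.642% called in either direction. Of the 39 genes, 33 had a log2 fold change above 0, and the median was 0.48 beside -0.01 over all genes. At an unadjusted p under 0.05, 16 genes were higher and 0 lower, while 6.84% of all genes were higher at that threshold. Sp100 had 115, 101, 68.8 and 87.1 CPM in P0 WT and 259, 146, 119 and 134 in P0 ME, with no overlap and a rise of 0.82 ± 0.19 (edgeR adjusted p = 0.0460). It was not called in 7 of 11 alternatives and in 6 of 8 fits with a library left out. DESeq2 called 5 genes higher, namely Irf7, Oas2, Oasl1, Ifih1 and Sp100.

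P0 ME library 1 held the highest value of its group for 33 of the 39 genes, and its median deviation from the gene means was 0.86 log2 units, beside -0.04 to 0.34 in the other 3. P0 WT library 1, the other P0 library with few macrophage transcripts, had the lowest median of its group at -0.36. Without P0 ME library 1 the median log2 fold change of the 39 genes was 0.19 and 0 genes were called. The count was also 0 without P0 ME library 2 or without P0 WT library 4, and 2 without P0 ME library 4.

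Irf7 had 322, 169.5, 169.9 and 111 CPM in P0 ME, above 90.2 to 123 in P0 WT in 3 of 4 libraries (log2 fold change 0.95 ± 0.27, edgeR adjusted p = 0.104). Stat2 had 102, 30.6, 68.5 and 40.0 CPM, beside 31.3, 48.1, 41.0 and 22.9 in P0 WT, and its groups overlapped (log2 fold change 0.75 ± 0.27, edgeR adjusted p = 0.197). For both, library 1 was the highest in P0 ME. Oas2, a synthetase of the oligoadenylate that activates RNase L, had 61.2, 59.8, 51.4 and 22.8 CPM beside 29.2, 26.8, 30.0 and 16.8 in P0 WT, with 3 of 4 ME libraries above all wild-type ones (log2 fold change 0.93 ± 0.28, edgeR adjusted p = 0.129). Mx1, an antiviral dynamin-like GTPase, had 14.3, 20.7, 16.2 and 6.24 CPM beside 4.91, 13.0, 3.86 and 5.61, and Isg15 had 68.7, 54.9, 50.1 and 61.4 beside 22.8, 68.6, 61.9 and 88.7. Neither gene separated the groups. No gene of the 17 of the interferon gamma response was called.

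From P0 to P28 in cells with ME induced at E10.5, 6 genes fell and 1 rose, beside 8.45% of all genes called lower, 9.79% called higher and 18.2% called in either direction. The 7 genes were 17.9% of the 39, so as a count they did not stand out from all genes. Those that fell were Rsad2, Isg15, Ifi204, Oas2, Ifit3 and Ifit3b, and the RNA sensor Ddx58 (RIG-I) rose. Rsad2, Isg15 and Ifi204 had also fallen in wild-type cells. Rsad2 had 166, 221, 223 and 192 CPM in P0 ME and 49.5, 42.3, 78.2 and 62.6 in E10.5-induced ME at P28, with no overlap (log2 fold change -1.79 ± 0.27, edgeR adjusted p = 6.76e-05). The RNA-binding Ifit3 had 70.0, 58.6, 52.8 and 30.0 CPM at P0 and 12.2, 9.47, 34.8 and 24.6 at P28, where library 3 reached into the P0 range, and fell by 1.38 on the log2 scale (edgeR adjusted p = 0.0255). Ddx58 had 166, 67.2, 134 and 58.7 CPM at P0 and 180.3, 171, 231 and 213 at P28 (log2 fold change 0.90 ± 0.24, edgeR adjusted p = 0.0121), and every P28 library lay above every P0 one.

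The count in this comparison moved most with P0 ME library 1. Without it 18 genes were called, 14 higher and 4 lower at P28, and without both P0 libraries numbered 1, 20 were called, 15 higher and 5 lower. The count was 4 without P0 ME library 2 and 3 without E10.5-induced ME library 2. Rsad2 was the gene that stayed called in all 11 alternatives and all 8 fits with a library left out. Of 17 interferon gamma response genes, 10 rose and 0 fell, and 12 of 12 macrophage markers fell. Spearman's rho of fold change with transcript length was 0.55 over the 39 genes and 0.33 over all genes. With GC and length offsets 3 genes rose and 7 fell, and Isg15 was no longer called (edgeR adjusted p = 0.133). The mitochondrial share was 1.11% to 2.12% of counts in P0 ME and 0.371% to 0.520% at P28, and its part was not tested.

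The test of whether the age difference itself differed between ME and wild type called none of the 39 genes, with 0.72% of all genes called by edgeR. At an unadjusted p under 0.05 there was 1 gene, beside 16.5% of all genes. It was Parp14, with an interaction of 0.94 ± 0.39 on the log2 scale (edgeR adjusted p = 0.226), followed by Dhx58 at 0.46 ± 0.30 (edgeR adjusted p = 0.455). The count was 0 in all 11 alternatives, limma and DESeq2 included.

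**Figure D2:**
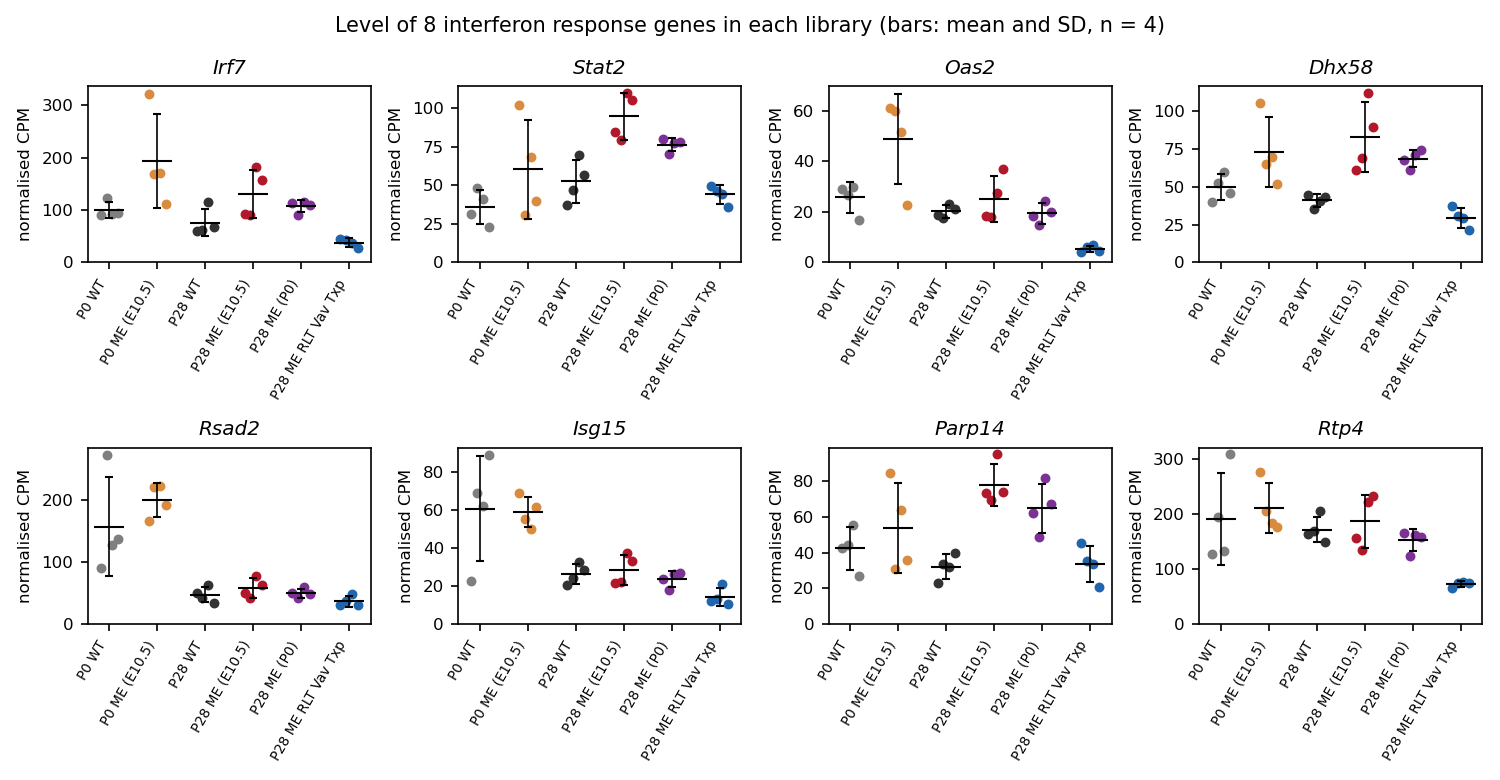
CPM of 8 interferon response genes in each library (points) of the 6 groups, with the group mean and SD (bars, n = 4); each axis starts at 0. Rsad2 is high at P0, the means of Stat2, Dhx58 and Parp14 are highest in E10.5-induced ME at P28, and Oas2, Rtp4 and Irf7 are lowest in RLT Vav Txp.

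At P28, 8 of the 39 genes were higher in E10.5-induced ME than in wild type and 0 lower, beside 7.82% of all genes called higher and 12.3% called in either direction. The 8 were Stat2, the synthetase Oas3, the sensors Ddx58 and Dhx58, the ADP-ribosylation genes Parp14 and Dtx3l, Cmpk2 and the RNA editor Adar. The median log2 fold change over the 39 genes was 0.47, beside -0.10 for all genes, and 34 genes were above 0. By role, 2 of 3 ADP-ribosylation genes, 2 of 7 sensors and kinases, 1 of 3 transcription factors and 1 of 5 OAS genes rose. None of the 4 Ifit genes, of Isg15, Usp18 and Herc6, or of the 3 GTPases was called. In 13 genes all ME libraries lay above all wild-type ones, where 16.6% of all genes did so.

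Dhx58 (LGP2), which modulates RIG-I-like sensing, had 44.9, 35.6, 40.6 and 43.4 CPM in P28 WT and 61.3, 68.9, 112 and 89.8 in E10.5-induced ME. The groups did not overlap, and the rise was 1.01 ± 0.21 (edgeR adjusted p = 0.00446), 2.02-fold. Parp14, a mono-ADP-ribosyltransferase, had 23.0, 33.7, 31.7 and 39.8 CPM in P28 WT and 73.4, 69.8, 95.3 and 73.9 with ME, again apart, and rose by 1.28 ± 0.28 (edgeR adjusted p = 0.00587). These were the 2 genes that stayed called in all 10 alternatives and all 8 fits with a library left out. Ddx58 had 90.3, 91.5, 122 and 117 CPM in P28 WT and 180.3, 171, 231 and 213 with ME (log2 fold change 0.92 ± 0.24, edgeR adjusted p = 0.0157). Stat2 had 37.4, 46.6, 69.6 and 56.8 CPM in P28 WT and 84.3, 79.1, 109.8 and 105 with ME, with no overlap (log2 fold change 0.85 ± 0.27, edgeR adjusted p = 0.0419).

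The main fit did not call Irf7, Isg15 or Ifit1 in this comparison. DESeq2 and limma called Irf7 higher, as did 3 of 8 edgeR fits with a library left out. Irf7 had 59.2, 62.1, 114 and 67.5 CPM in P28 WT and 92.9, 90.99, 182 and 157 with ME, and wild-type library 3 lay above ME libraries 1 and 2 (log2 fold change 0.79 ± 0.27, edgeR adjusted p = 0.0559). Isg15 had 20.4, 24.2, 32.6 and 28.4 CPM in P28 WT and 21.4, 22.0, 37.2 and 32.9 with ME. Ifit1, which binds foreign RNA, had 55.0, 59.2, 72.7 and 43.8 CPM in P28 WT and 47.3, 40.8, 80.7 and 82.8 with ME. Both genes overlapped between the groups. In all 39 genes the highest of the 4 ME libraries was number 3 (22 genes) or number 4 (17 genes), and their median deviations were 0.64 and 0.60 log2 units beside 0.03 and 0.01 in numbers 1 and 2. Without library 3, 2 genes were called, and without library 4, 4 genes. With only these 2 groups in the fit, 15 genes were higher and 2 lower (Ifi203 and Ifi27), and with limma 16 higher and 1 lower (Ifi27). Of the calls over all genes in these fits, 51.2% and 57.6% were higher. The share of all genes called in them is not given here, and the shares above are those of the main fit. Leaving out wild-type library 1, 2 or 4 left 2, 2 and 4 genes. Dtx3l was called in none of the 8 fits with a library left out, and Stat2 in 1 of them.

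Transcript length moved with this comparison. Over 10240 well-expressed genes, the median log2 fold change rose from -0.27 in the shortest of 4 equal classes of transcript length to 0.16, 0.34 and 0.48 in the next 3, as the plot of fold change against length shows. The difference between short and long genes was -0.65 to -0.41 log2 units in the libraries of E10.5-induced ME and 0.01 to 0.46 in P28 WT. Across the 39 genes, Spearman's rho of fold change with length was 0.51, and across all 10240 genes 0.50, where genes share libraries and are not independent. The 6 response genes in the longest class had a median log2 fold change of 0.85 and 4 were called, while the 10 in the shortest class had a median of 0.12 and 0 were called. With offsets for GC content and transcript length, Ddx58, Dhx58 and Parp14 were called, and with plain library totals Dhx58 and Parp14. The share of mitochondrial counts did not overlap between the groups, at 0.371% to 0.520% in E10.5-induced ME and 1.32% to 2.15% in P28 WT, and its part was not tested. Plain totals also moved the share of calls over all genes that were higher from 63.8% to 33.3%.

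**Figure D3:**
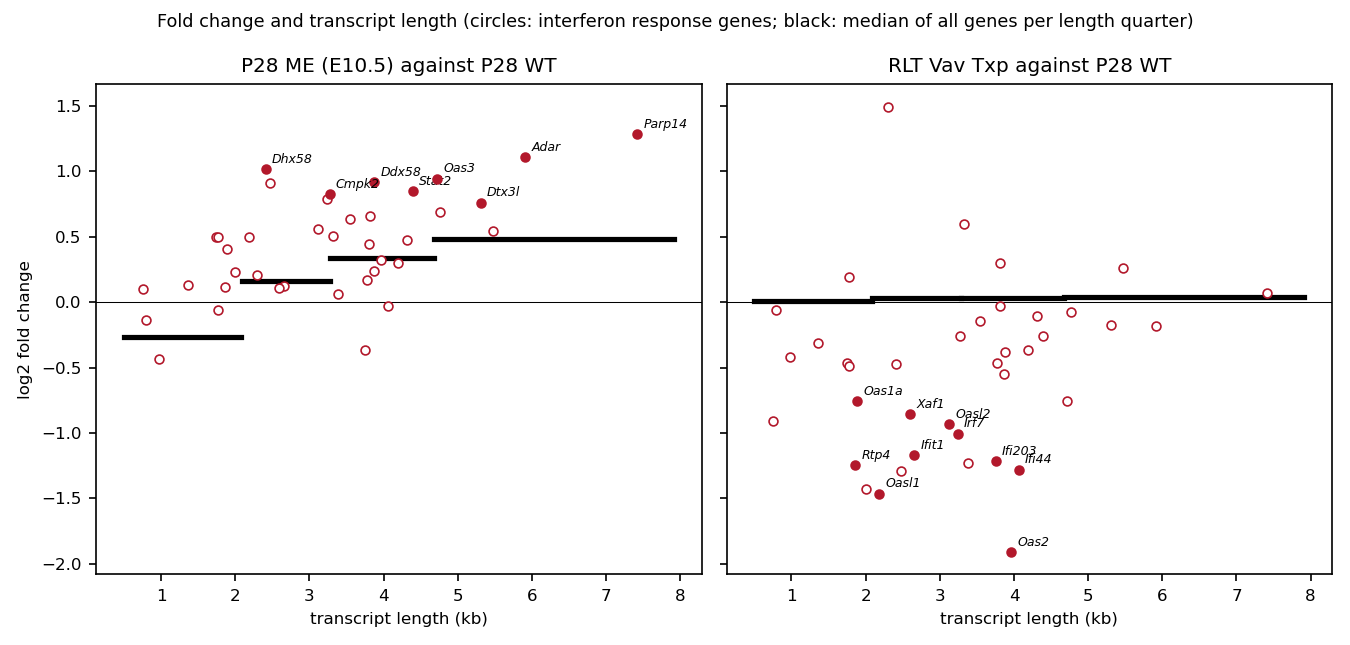
Log2 fold change against transcript length (kb) of the 39 interferon response genes (circles, filled where edgeR adjusted p was under 0.05) in 2 comparisons, with the median of all well-expressed genes in each of 4 length classes (black bars). The bars climb from -0.27 to 0.48 in E10.5-induced ME against P28 WT and stay between 0.01 and 0.04 in RLT Vav Txp against P28 WT.

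Upstream of the response, Tbk1, the kinase that activates IRF3 and IRF7, rose from 82.6 ± 7.32 to 131 ± 12.5 CPM (SD, n = 4; log2 fold change 0.67 ± 0.14, edgeR adjusted p = 0.00427), the only gene called of the 11 tested in the induction pathway. Macrophage markers were not higher with ME, with 0 of 12 called and sums of 50.1 to 78.5 CPM beside 79.2 to 119.

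With ME induced at P0, 0 of the 39 genes were called against P28 WT by edgeR, beside 1.57% of all genes. At an unadjusted p under 0.05, 8 genes were higher and 0 lower, beside 10.2% of all genes higher. DESeq2 called 2 genes higher, limma 11 higher and 2 lower, and an edgeR fit of these 2 groups alone 13 higher and 3 lower. Ifi47 and Ifi27 were lower in both of the last fits. Of the calls over all genes, 31.9% were higher with DESeq2, 54.2% with limma and 49.6% in the fit of these 2 groups alone. The share of all genes called in these fits is not given here, so their counts cannot be set against it. Without P28 WT library 4, edgeR called Parp14. Parp14 had 62.1, 48.6, 82.1 and 67.2 CPM, above all wild-type libraries at 23.0 to 39.8 (log2 fold change 1.02 ± 0.28, edgeR adjusted p = 0.0551). Dhx58 had 68.0, 61.1, 71.1 and 74.4 CPM, also above the wild-type range of 35.6 to 44.9 (log2 fold change 0.74 ± 0.21, edgeR adjusted p = 0.0599). Groups that did not overlap were seen for 12 genes higher and 2 lower, where 14.4% and 10.4% of all genes did the same. Tbk1 rose here too, by 0.69 ± 0.14 (edgeR adjusted p = 0.0288). Fold change and length again went together, with Spearman's rho 0.64 over the 39 genes and 0.56 over all genes. The mitochondrial share was 0.500% to 0.623% of counts, below every P28 WT library.

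E10.5-induced and P0-induced ME were not told apart by these genes at P28. None of the 39 was called by edgeR, beside 0.0477% of all genes, and 1 had an unadjusted p under 0.05, beside 4.33% of all genes. It was Oas1a, the only member of the Oas1 family among the 39 genes, with a log2 fold change of -0.38 ± 0.18 (edgeR adjusted p = 1). DESeq2 called 0 genes and limma called 2. The next lowest p was that of Usp18, the protease that removes ISG15 and restrains the receptor, at -0.54 ± 0.29 (edgeR adjusted p = 1). Usp18 had 36.0, 24.9, 55.3 and 61.8 CPM in E10.5-induced and 32.5, 24.1, 34.6 and 30.8 in P0-induced ME, with 3 of the 4 P0-induced libraries inside the E10.5-induced range. The median over the 39 genes was -0.23, and 30 were lower with P0 induction. Both ME groups were set against the same wild-type libraries above. A missed threshold does not show that the groups were alike.

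In the RLT Vav Txp group, 10 of the 39 genes were lower than in P28 WT and 0 were higher, beside 1.48% of all genes called lower and 4.12% called in either direction. The 10 included 4 of 5 OAS genes (Oas1a, Oas2, Oasl1 and Oasl2), Irf7, Ifit1, the p200 gene Ifi203, the XIAP-binding Xaf1, Rtp4 and Ifi44. The median log2 fold change over the 39 genes was -0.47 beside 0.01 for all genes, and 33 genes were below 0. In 16 of the 39 genes all RLT Vav Txp libraries lay below all wild-type ones, where 4.45% of all genes did so.

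Oas2 had 18.9, 17.5, 23.2 and 21.0 CPM in P28 WT and 4.00, 6.14, 6.78 and 4.602 in RLT Vav Txp. Every RLT Vav Txp library lay below every wild-type one, and Oas2 fell 3.75-fold (log2 fold change -1.91 ± 0.29, edgeR adjusted p = 0.000200). Rtp4, a receptor-transporter protein with antiviral activity, had 164, 169, 205 and 149.8 CPM in P28 WT and 64.6, 73.7, 76.6 and 74.9 here, a narrow and separate range (log2 fold change -1.25 ± 0.23, edgeR adjusted p = 0.00113). Oasl1, an OAS-like protein without synthetase activity, had 22.8, 19.7, 24.7 and 15.0 CPM in P28 WT and 8.59, 11.5, 5.95 and 3.85 in RLT Vav Txp and fell 2.76-fold (edgeR adjusted p = 0.00335). Irf7 had 44.4, 42.9, 36.9 and 27.0 CPM, below each wild-type library (59.2 to 114), with no overlap and a log2 fold change of -1.004 ± 0.27 (edgeR adjusted p = 0.0313). Ifit1 had 17.1, 26.3, 36.1 and 23.2 CPM, also below the wild-type range of 43.8 to 72.7 (log2 fold change -1.17 ± 0.31, edgeR adjusted p = 0.0285).

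Oas2, Oasl1, Ifi203, Rtp4 and Ifi44 stayed called in all 8 alternatives and all 8 fits with a library left out. The count was 5 without wild-type library 3 and 6 without RLT Vav Txp library 4.  Ifi204 had 15.4, 6.28, 18.3 and 7.71 CPM beside 4.14, 2.93, 6.69 and 3.19 in P28 WT, with 3 of 4 libraries above every wild-type one (log2 fold change 1.49 ± 0.46, edgeR adjusted p = 0.0691), and DESeq2 and the fit with GC and length offsets called it higher. Bst2 was 76.5 to 86.2 CPM beside 78.1 to 94.2, Isg15 10.3 to 20.8 beside 20.4 to 32.6 (edgeR adjusted p = 0.0834), and Sp100 148 to 172 beside 154 to 175.

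Against E10.5-induced ME at the same age, 25 of the 39 genes were lower in RLT Vav Txp and 0 higher, beside 9.38% of all genes called lower and 17.9% called in either direction. The median log2 fold change was -0.98, beside 0.12 for all genes. All 3 transcription factors, all 5 OAS genes, all 3 ADP-ribosylation genes, 2 of 4 Ifit genes, 3 of 7 sensors and kinases, Isg15, Usp18, Mx2 and 6 of 11 other effectors fell. In 27 genes the 2 groups did not overlap, where 14.2% of all genes were lower without overlap. Of the 25, 18 stayed called in all 8 alternatives and all 8 fits with a library left out, Irf7 and Stat2 among them.

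Oas2 was at 17.8 to 37.1 CPM in E10.5-induced ME and 4.00 to 6.78 in RLT Vav Txp (log2 fold change -2.23 ± 0.30, edgeR adjusted p = 2.51e-05). Dhx58 had 61.3, 68.9, 112 and 89.8 CPM in E10.5-induced ME and 37.2, 30.7, 29.4 and 21.3 in RLT Vav Txp, a 2.80-fold fall with no overlap (edgeR adjusted p = 5.58e-05). Oasl2 had 159, 151, 243 and 220.0 CPM in E10.5-induced ME and 74.6, 63.6, 69.6 and 67.1 in RLT Vav Txp, again apart, and fell by 1.49 (edgeR adjusted p = 0.000105). The 3 transcription factors fell too. Irf7 fell by 1.79, Stat2 by 1.10 and Irf9 by 0.78 on the log2 scale, with edgeR adjusted p-values of 0.000126, 0.00743 and 0.00327. Irf9 had 209, 182, 245 and 246 CPM in E10.5-induced ME and 122, 142, 133 and 115 in RLT Vav Txp. Usp18 had 20.4, 24.2, 19.4 and 26.0 CPM beside 24.9 to 61.8 (log2 fold change -0.98 ± 0.30, edgeR adjusted p = 0.0236), with ME library 2 inside the RLT Vav Txp range.

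Bst2, Ifi27, Zbp1, Ifi47 and Ifi204 were the 5 genes with a log2 fold change above 0, between 0.01 for Ifi27 and 1.28 for Ifi204 (edgeR adjusted p = 0.985 and 0.0528). The absence of higher calls depended on the fit. Ifi204 was called higher in 6 of 8 alternatives and in 2 of 8 fits with a library left out, and limma also called Ifi47 higher. Ifi27 had 121, 167, 170.5 and 136 CPM beside 138, 110.0, 181 and 162 in E10.5-induced ME, with overlapping groups. Transcript length moved with this comparison, with all-gene medians of 0.29, -0.15, -0.31 and -0.47 from the shortest to the longest class and a Spearman's rho of -0.46 over all genes and -0.07 over the 39. With the GC and length offsets 25 genes were called, 24 of them the same, with Ifi35 in place of Irf9 (log2 fold change -0.48, edgeR adjusted p = 0.0921). Both groups have the same induction time, and the comparisons with P28 WT and with ME share the RLT Vav Txp libraries. The mitochondrial share was 0.560% to 1.61% of counts in RLT Vav Txp and 0.371% to 0.520% in E10.5-induced ME, without overlap. In P28 WT it was 1.32% to 2.15%, and its part was not tested. The difference between short and long genes was -0.21 log2 units in RLT Vav Txp library 1 and 0.37 to 0.44 in libraries 2 to 4.

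**Figure D4:**
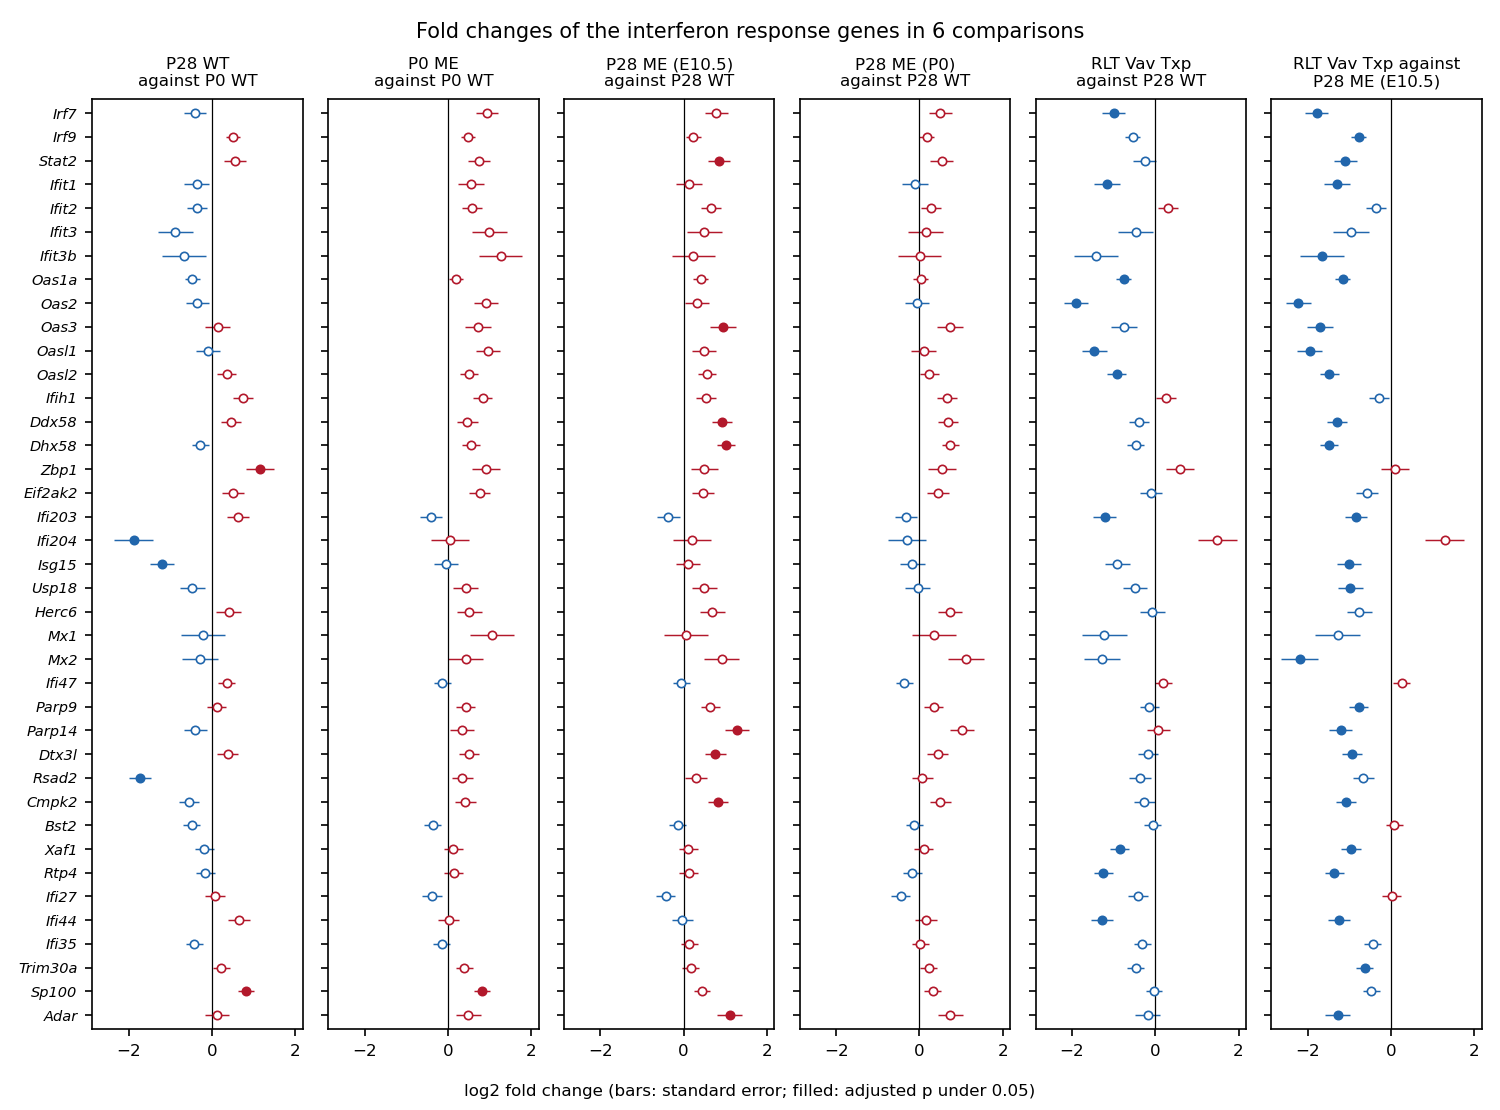
Log2 fold change (points) with standard error (bars) of the 39 interferon response genes, by role, in 6 comparisons; filled points have an edgeR adjusted p under 0.05, red is above and blue below 0. The 2 panels with RLT Vav Txp hold 10 and 25 filled blue points, and E10.5-induced ME against P28 WT holds 8 filled red points.

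Markers of other cells differed in the same comparisons. In RLT Vav Txp, 11 of 12 macrophage markers were higher than in P28 WT and 12 of 12 higher than in E10.5-induced ME. Cd34 averaged 519 ± 172 CPM beside 1237 ± 74.2 in P28 WT, and Flt3, a receptor of multipotent progenitors, 222 ± 139 beside 1175 ± 59.3 (SD, n = 4; log2 fold changes -1.25 ± 0.20 and -2.40 ± 0.33, edgeR adjusted p = 0.000407 and 7.23e-05). Kit was 805 ± 126 CPM beside 688 ± 72.1. Of the 5 genes summed as the sorted population, 1 was called higher and 2 lower than in P28 WT. Over all genes, 2.64% were called higher and 1.48% lower in that comparison. Against E10.5-induced ME, 1 of the 5 was called higher and 2 lower, beside 8.5% and 9.38% of all genes. Library 2 of RLT Vav Txp had the lowest macrophage sum of its group, 809 CPM, and a median deviation of the 39 genes of -0.55 log2 units, beside -0.78 to -0.51 in the other 3. The part of these markers in the lower values of RLT Vav Txp was not tested.

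**Figure D5:**
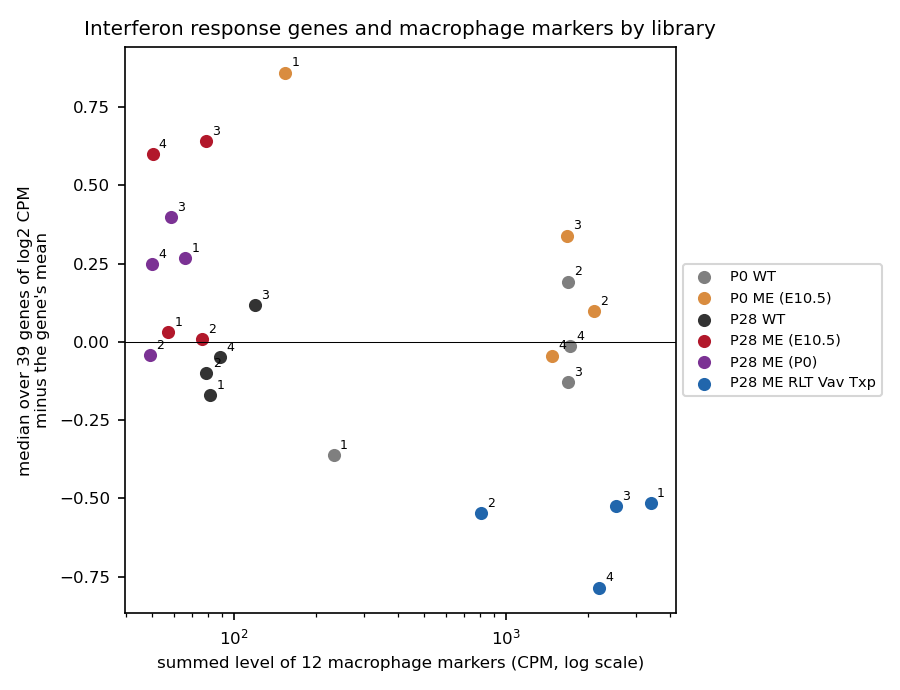
Median over the 39 interferon response genes of the log2 deviation from each gene's mean (vertical axis) against the summed CPM of 12 macrophage markers (horizontal, log scale), 1 point per library, numbered within its group. RLT Vav Txp libraries lie at -0.78 to -0.51 with sums of 809 to 3408 CPM, and 6 P0 libraries, which differ in age and organ, lie at -0.13 to 0.34 with sums of 1478 to 2100 CPM.

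Of 17 interferon gamma response genes, 4 were higher in RLT Vav Txp than in P28 WT and 0 lower, beside 2.64% of all genes called higher. Against E10.5-induced ME, Ciita and Cxcl9 were higher and Irgm1, an immunity-related GTPase, was lower, with a median log2 fold change of 0.09 over the 17 genes. From P28 WT to RLT Vav Txp, the chemokine Cxcl9 went from 0.167 ± 0.226 to 13.6 ± 5.07 CPM and Ciita, the activator of MHC class II genes, from 2.66 ± 1.28 to 19.3 ± 5.47 (SD, n = 4; log2 fold changes 6.24 ± 1.58 and 2.85 ± 0.69, edgeR adjusted p = 0.0217 and 0.0140). Cxcl10 and Gbp3 were the other 2. The 4 calls became 0 without wild-type library 1 and 2 without wild-type library 2 or 3, or RLT Vav Txp library 3. Irf8 rose from 26.6 ± 5.97 to 102 ± 41.5 CPM (log2 fold change 1.94 ± 0.29, edgeR adjusted p = 0.000158), while Irf2 fell by 0.59 (edgeR adjusted p = 0.0324). Ciita, Cxcl9 and Irf8 are also expressed by macrophages, whose markers rose in the same libraries, and their part was not tested.

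Some genes carry reads that the counting may not have assigned to 1 gene. Ifit3 and Ifit3b, Oas1a and its family, Ifi203 and Ifi204, and Trim30a have close copies. The strand setting is not given in the sources used here. Exon bases shared with another gene made up 13.7% of Herc6, 13.9% of Rtp4, 16.8% of Ifi35, 16.8% of Adar, 9.4% of Parp9, 8.77% of Ifi47 and 8% of Dtx3l. How far this moved their counts was not tested.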

How the data were processed

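Gene counts of 24 bulk RNA-seq libraries were used as deposited. Per the submitters' processing notes the authors used STAR 2.7.9a, Subread and featureCounts 2.0.3 on GRCm38, and the strand setting is not given in the sources used here. Per the labels' protocols, total RNA was extracted with RNeasy Plus and libraries were made with SMARTer. Of 55774 entries, 287 repeats with identical counts were dropped, and 0 columns belonged to other series. Samples were grouped by their labels. No pair of replicates agreed within counting noise, the lowest chi-square per gene being 20.8.

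Counts were tested with edgeR 4.0.16 in R 4.3.3 (TMM factors, filterByExpr with a minimum count of 10, robust quasi-likelihood F-test, Benjamini-Hochberg adjustment over 23059 genes). One fit held all 24 libraries with 6 group means, which left 18 residual degrees of freedom. Called means an adjusted p under 0.05. All 39 genes were followed by role, with values in every library for 21 of them. Of other lists, counts and up to 4 genes with the lowest adjusted p were named, and where no gene was called the 2 with the lowest unadjusted p. Flt3, Cd34, Kit, Ly6a, C1qa, Adgre1, Siglech, Ifnar1 and Ifnar2 were named outside that rule, after their values were seen. The members and lists were chosen with earlier results of these data known. Alternatives were RLE factors, plain totals, other filters, the compared groups alone, DESeq2 1.42.0, limma 3.58.1, a replicate block, GC and length offsets, and each library left out. The GC and length offsets and the removal of both P0 libraries numbered 1 were chosen after seeing the data. Promoter sequences are RefSeq's. Some results on signalling genes outside the 39 are not reported here. The test script was tested on simulated data, after a first simulation with fewer libraries had missed its limit for recovered changes. In the simulation of all 24 libraries, most 2-fold changes were not called.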

Additional observations from a re-analysis of the deposited data

Results flagged for a closer look

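In 3 cases 1 library stood far from the other 3 of its group by Dixon's test, out of 126 combinations of gene and group tested, where chance flags about 1 in 20, or 6.3 here. Irf7 was at 123.298 CPM in P0 WT library 2, beside 90.2 to 94.9 in the other 3. Irf7 was at 114.437 CPM in P28 WT library 3, beside 59.2 to 67.5 in the other 3. Parp14 was at 95.3392 CPM in E10.5-induced ME library 3, beside 69.8 to 73.9 in the other 3.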

How the results depend on the processing

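The number of the 39 genes called is given throughout, from edgeR unless another tool is named. The share of all genes called in each alternative is not given, so these counts cannot be set against it. For P28 WT against P0 WT, the 5 calls became 2 with only the groups compared, 2 with limma, 9 without both P0 libraries numbered 1, and 3 to 8 with a library left out. For P0 ME against P0 WT, the 1 call became 0 with plain totals, no filter, only the groups compared, limma, the 20 numbered libraries, or both P0 libraries numbered 1 removed, 5 with DESeq2, and 0 to 2 with a library left out. For E10.5-induced ME at P28 against P0, the 7 calls became 16 with limma, 20 without both P0 libraries numbered 1, and 3 to 18 with a library left out. For E10.5-induced ME against P28 WT, the 8 calls became 5 with RLE factors, 2 with plain totals, 4 with no filter, 5 with at least 10 counts in 12 libraries, 17 with only the groups compared (15 higher, 2 lower), 17 with limma (16 higher, 1 lower), 5 with the 20 numbered libraries, 3 with GC and length offsets, and 2 to 8 with a library left out. For P0-induced ME against P28 WT, the 0 calls became 16 with only the groups compared, 2 with DESeq2, 13 with limma, 2 with the 20 numbered libraries, and 0 to 1 with a library left out. Against E10.5-induced ME, the 0 calls became 2 with limma. For RLT Vav Txp against P28 WT, the 10 calls were 7 to 14 over the alternatives and 5 to 10 with a library left out. The cause was not tested. Fits of the compared groups alone hold fewer samples and take the spread from those groups only, while the main fit takes it from all 6 groups. Chi-square per gene between replicates was 20.8 to 81.1 within P28 WT, E10.5-induced ME at P28 and P0-induced ME. It was 80.1 to 768 within P0 WT, P0 ME and RLT Vav Txp. Plain totals moved the all-gene median of the log2 fold change from -0.07 to 0.08 for P28 WT against P0 WT and from -0.10 to -0.23 for E10.5-induced ME against P28 WT.

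The labels do not say that replicate numbers pair the samples, and in no comparison did every same-numbered pair have a correlation of deviations over 0.1, so the block stayed an alternative. For P0 ME against P0 WT 3 of 4 pairs did, at 0.66, 0.371 and 0.464, each best with its own number, and the other was at 0.0531. Irf7 and Oas2 were higher with ME in 4 of 4 of these pairs. With a replicate block on the 20 numbered libraries, the calls were 4 for P28 WT against P0 WT, 0 for P0 ME against P0 WT, 8 for E10.5-induced ME at P28 against P0, 7 for E10.5-induced ME against P28 WT and 2 for P0-induced ME against P28 WT. RLT Vav Txp titles carry identifiers that are not replicate numbers shared with other groups, so no blocked fit was made for them.

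Depth was at least 31233688 counts per library. Each group held 4 libraries, and the p-values measure the spread between these samples.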
